A study of Homo sapiens with 5 samples.

Results

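The genes of triglyceride synthesis by the glycerol phosphate pathway were followed in HepG2 cells, a human hepatic carcinoma line, after depletion of LSD2, a histone H3 lysine 4 demethylase encoded by KDM1B. The pathway was represented by 10 named enzymes, from GPAM to DGAT2, and a probe set was taken where the platform annotation gave it one of these symbols and no other. This found 15 probe sets for 8 of the 10 enzymes, out of 12893 genes in all. AGPAT3 and LPIN3 had no such probe set and were not analysed here. Both groups were cells of the same line, with no stated genetic change, in medium with 25 mM glucose and 10% serum, given siRNA with RNAiMAX at about 50% confluence and harvested after 3 to 4 days. The control group received siRNA directed at GL3, a luciferase of the firefly with no human counterpart, and was read on 2 arrays, of which the second is labelled a technical replicate of the first. The knockdown group was 3 arrays, each with a different LSD2 siRNA. The control therefore counted as 1 sample, and because no label names separate cultures, p-values cover only the spread between these samples, which may be technical.

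Triglyceride is built mainly in the endoplasmic reticulum by adding fatty acyl chains to glycerol 3-phosphate. GPAM, in the outer mitochondrial membrane, adds the first chain and the AGPAT enzymes the next, which gives phosphatidate. Lipins remove the phosphate to give diacylglycerol, and DGAT1 or DGAT2 adds the last chain. In hepatocytes the product is stored in lipid droplets or secreted in very low density lipoproteins, and phosphatidate and diacylglycerol also feed phospholipid synthesis.

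The deposited values are on a log scale, taken here as base 2, and each probe set is centred on its own median over the 5 arrays. Levels of different genes, and the presence of hepatocyte markers as such, could not be read from them. Values were averaged over a gene's probe sets, and differences are siRNA minus the mean of the control arrays on the log2 scale unless another reference is named. The RNA came from whole cultures, so fewer cells with a transcript and less transcript per cell cannot be told apart. The number of arrays limited precision. KDM1B, the targeted gene, stood at -2.60, -1.73 and -1.38 under siRNAs 1, 2 and 3, below both control arrays each time. Its probe sets 227021_at and 1553150_at had mean differences of -2.90 and -0.90. Over 24 probe sets for poly-A control transcripts added before labelling, control array 2 and siRNA 3 read at a median of -1.45 and -1.39 against control array 1, while siRNAs 1 and 2 read at 0.04 and 0.07. Values against the control array with like poly-A readings, control array 1 for siRNAs 1 and 2 and control array 2 for siRNA 3, are therefore given beside the main values where a result turns on them.

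Of the 8 measured enzymes, DGAT2, AGPAT2 and LPIN1 stood above both control arrays under all 3 siRNAs, by means of 1.19, 0.84 and 0.30. LPIN2 stood below the control mean under all 3, by a mean of -0.38, but not below both control arrays under siRNA 1. GPAM, AGPAT1, AGPAT5 and DGAT1 lay on both sides of the control. No enzyme passed the test: limma gave 0 of 8 at an adjusted p under 0.05, as it gave 0% of all genes tested, and the lowest adjusted p = 0.9999. KDM1B, the targeted gene, did not pass it either, so not passing does not show that a gene was unchanged. Before adjustment, 1 enzyme (DGAT2) and 218 genes had p under 0.05 in that fit. Being above both control arrays under all 3 siRNAs was met by 3 of 8 enzymes and by 8.63% of all genes, and being below both by 0 of 8 and 10.1%. Against the control mean, 3 of 8 were higher under all 3 siRNAs, beside 17.9% of all genes, and 1 of 8 was lower, beside 18.2%. Without siRNA 2 the count of lower enzymes was 3, with GPAM and AGPAT1 added, and without control array 2 it was 0. Shares over all genes were not taken for these settings, and 2 siRNAs share a sign more readily than 3. The median of the 8 mean differences was 0.18, against -0.02 over all genes, and the medians under siRNAs 1, 2 and 3 were -0.02, 0.54 and 0.21. The median of the means was 0.29 without siRNA 1 and 0.073 without siRNA 3, and leaving out control array 1 or 2 gave 0.35 or 0.083.

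**Figure D1:**
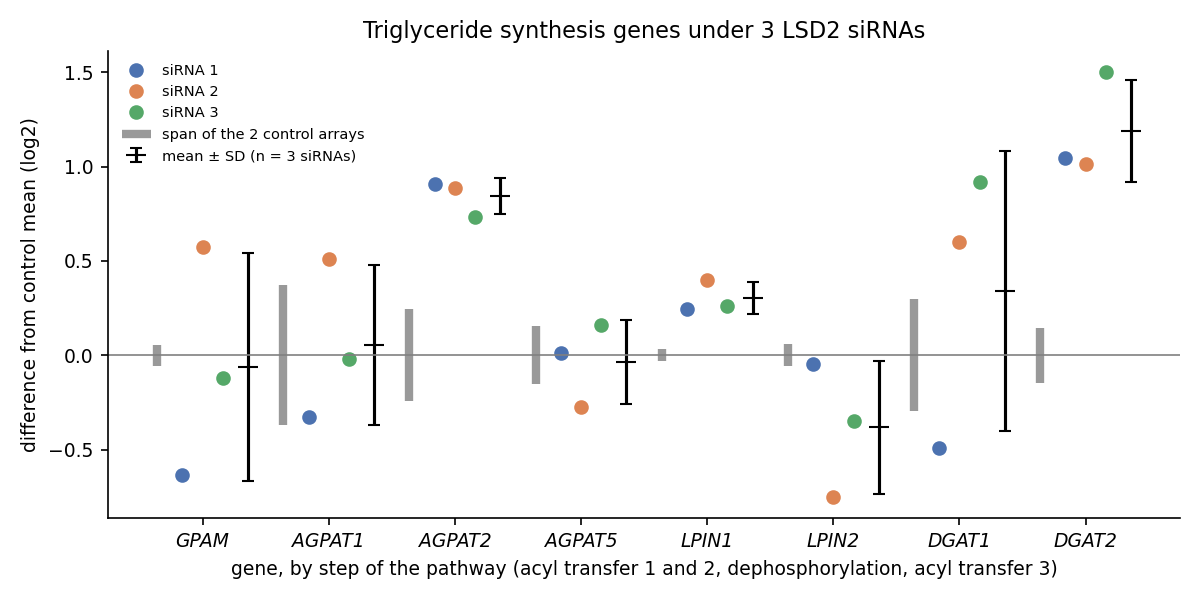
Difference from the control mean on the log2 scale (vertical axis) for each measured enzyme in pathway order (horizontal axis). Coloured points are the 3 siRNAs, black bars the mean ± SD over siRNAs, and grey bars the span of the 2 control arrays about their mean; DGAT2, AGPAT2 and LPIN1 have all 3 points above the grey bar, and GPAM, AGPAT1 and DGAT1 have points on both sides of 0.

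DGAT2, which catalyses the last acyl transfer and is tied in liver to the use of newly made fatty acids, had the widest mean difference of the 8. Its probe set 224327_s_at read -0.80 and -1.29 on control arrays 1 and 2 and 0.00, 0.19 and 0.41 under siRNAs 1, 2 and 3. Its probe set 226064_s_at read 0.25, 0.00 and 0.75 under the siRNAs, against -0.75 and -0.85 on the control arrays. In both probe sets every siRNA array lay above both control arrays, with no overlap. The mean differences of the probe sets were 1.25 and 1.13. For the gene the differences were 1.05, 1.02 and 1.50 under siRNAs 1, 2 and 3, a mean of 1.19 ± 0.27 (SD, n = 3 siRNAs) or 2.28-fold. The control arrays lay -0.29 apart, less than any of these differences. limma gave a standard error of 0.42, a 95% interval of 0.10 to 2.28, an unadjusted p = 0.0378 and an adjusted p = 0.9999. No other enzyme had an unadjusted p under 0.05, a mark reached by 1 of 8 enzymes and by 1.69% of all genes. It was also the only one at least 1 higher under every siRNA, which 1.16% of all genes were. A mean difference as high or higher was found for 2.90% of genes. Against the control array with like poly-A readings DGAT2 stood at 0.90, 0.87 and 1.65. Its unadjusted p was above 0.05 on leaving out any 1 siRNA or control array 2, while its mean then lay between 1.03 and 1.27.

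DGAT1, an enzyme unrelated in sequence to DGAT2 that carries out the same reaction, lay on both sides of the control. Its single probe set read 0.00 and -0.59 on control arrays 1 and 2 and -0.79, 0.31 and 0.62 under siRNAs 1, 2 and 3. siRNA 1 was thus below both control arrays and siRNAs 2 and 3 above both. The differences were -0.49, 0.60 and 0.92, with a mean of 0.34 ± 0.74 (SD, n = 3 siRNAs), which is smaller than the spread between siRNAs. The mean was 0.76 without siRNA 1 and 0.05 without siRNA 3, and leaving out control array 1 or 2 gave 0.64 or 0.05. The difference from control was higher for DGAT2 than for DGAT1, by 1.54, 0.41 and 0.58, a mean of 0.85 ± 0.61 (SD, n = 3 siRNAs).

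**Figure D2:**
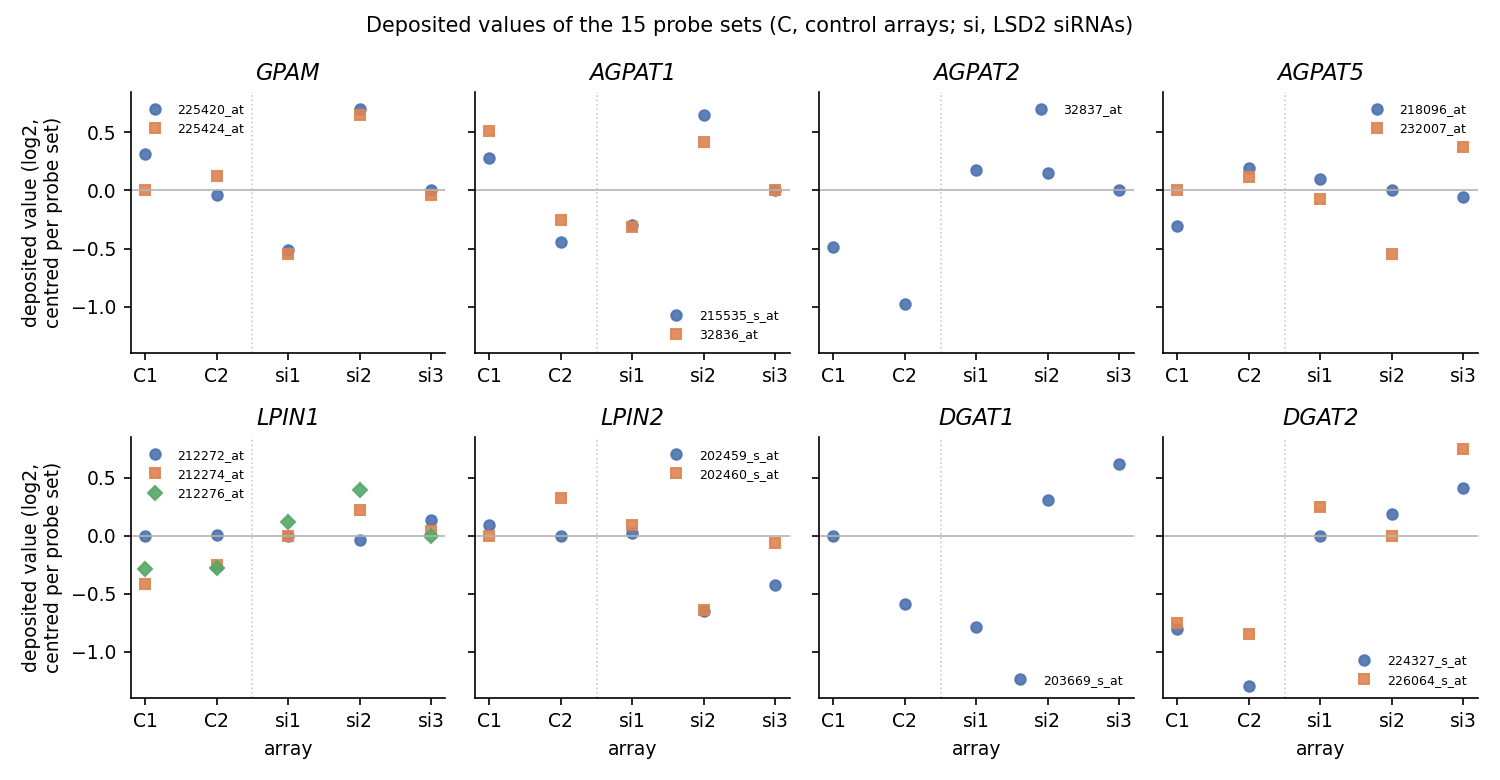
Deposited log2 values, centred per probe set (vertical axis), on the 2 control arrays (C1, C2) and under LSD2 siRNAs 1 to 3 (si1 to si3), 1 panel per enzyme and 1 symbol per probe set. Both DGAT2 probe sets and the AGPAT2 probe set lie lowest on the control arrays, both GPAM probe sets are lowest under siRNA 1 and highest under siRNA 2, and 1 of the 3 LPIN1 probe sets stays near 0 on every array.

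AGPAT2, the acyltransferase whose loss causes congenital generalised lipodystrophy, was the next highest. Its single probe set read -0.49 and -0.98 on control arrays 1 and 2 and 0.17, 0.15 and 0.00 under siRNAs 1, 2 and 3. The siRNA arrays did not overlap the control arrays. The differences of 0.91, 0.89 and 0.73 gave a mean of 0.84 ± 0.10 (SD, n = 3 siRNAs), or 1.79-fold. limma gave a standard error of 0.38 and an unadjusted p = 0.0776, with an adjusted p = 0.9999. The control arrays differed by -0.49, and leaving out the first or the second of them gave a mean of 1.09 or 0.60. Against the control array with like poly-A readings the values were 0.66, 0.64 and 0.98. A mean difference as high or higher was found for 5.65% of genes.

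The other acyltransferases of this step showed no common direction. AGPAT1, a widely expressed form, read 0.39 and -0.35 on control arrays 1 and 2 and -0.31, 0.53 and 0.00 under siRNAs 1, 2 and 3, as a mean of its probe sets. Its control arrays spanned 0.74, so that siRNAs 1 and 3 fell between them. The mean difference was 0.05 ± 0.43 (SD, n = 3 siRNAs), and leaving out control array 1 or 2 gave 0.42 or -0.32. AGPAT5, a form found in mitochondria and the endoplasmic reticulum, had differences of 0.01, -0.28 and 0.16 and a mean of -0.03 ± 0.22 (SD, n = 3 siRNAs). Its probe sets disagreed, since 218096_at gave a mean of 0.07 and 232007_at a mean of -0.14. The difference from control of AGPAT2 was above that of AGPAT1 by a mean of 0.79 ± 0.43 (SD, n = 3 siRNAs) and above that of AGPAT5 by a mean of 0.88 ± 0.30.

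GPAM, the mitochondrial acyltransferase that opens the pathway and a known target of SREBP1, differed between the siRNAs more than from the control. Its probe set 225420_at read 0.31 and -0.04 on control arrays 1 and 2 and -0.51, 0.70 and 0.00 under siRNAs 1, 2 and 3. Its probe set 225424_at read -0.55, 0.65 and -0.04 under the siRNAs, against 0.00 and 0.13 on the control arrays. Both probe sets thus put siRNA 1 lowest and siRNA 2 highest of the 5 arrays. The gene differences were -0.63, 0.57 and -0.12, with a mean of -0.06 ± 0.60 (SD, n = 3 siRNAs) and control arrays -0.11 apart. The mean was 0.22 without siRNA 1 and -0.38 without siRNA 2. The limma 95% interval ran from -1.55 to 1.43.

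LPIN1 and LPIN2, phosphatidate phosphatases that also act as coregulators of transcription, lay on opposite sides of the control. For LPIN1 the control arrays read -0.24 and -0.17 and siRNAs 1, 2 and 3 read 0.04, 0.19 and 0.06, as a mean of its 3 probe sets. The groups did not overlap, and the control arrays were 0.06 apart. The differences of 0.24, 0.40 and 0.26 gave a mean of 0.30 ± 0.08 (SD, n = 3 siRNAs), or 1.23-fold, with a limma standard error of 0.38 and an adjusted p = 0.9999. This rested on 2 of its 3 probe sets: 212274_at and 212276_at had means of 0.42 and 0.46, while 212272_at had a mean of 0.03 with siRNA 2 below both control arrays. A mean difference as high or higher than that of LPIN1 was found for 20.6% of genes.

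LPIN2, whose loss causes an inflammatory bone marrow and bone disorder, read 0.05 and 0.16 on control arrays 1 and 2 and 0.06, -0.64 and -0.24 under siRNAs 1, 2 and 3. siRNA 1 fell between the control arrays and the other siRNAs below them. The differences were -0.05, -0.75 and -0.35, a mean of -0.38 ± 0.35 (SD, n = 3 siRNAs), and the mean was -0.20 without siRNA 2. Its probe sets 202459_s_at and 202460_s_at gave means of -0.39 and -0.37. Against the control array with like poly-A readings the values were 0.01, -0.69 and -0.41. The difference from control was higher for LPIN1 than for LPIN2 by 0.29, 1.15 and 0.61, a mean of 0.68 ± 0.43 (SD, n = 3 siRNAs).

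The differences from control of enzymes of the same step were compared in 5 pairs, each as the gene with the higher mean minus the other. DGAT2 over DGAT1, AGPAT2 over AGPAT1, AGPAT2 over AGPAT5 and LPIN1 over LPIN2 were above 0 under 3 of 3 siRNAs. The siRNAs share the control sample, the order within a pair was set by its mean, and AGPAT2 enters 2 of these pairs, so the common sign is a description only. An exact two-sided sign-flip permutation test over the 3 siRNAs gave p = 0.25 for each of the 4, the smallest p that 3 values allow, and 0.312 after Benjamini-Hochberg adjustment over the 5 pairs. The design cannot reach 0.05 in this comparison. AGPAT1 against AGPAT5 gave a mean of 0.09 ± 0.61 (SD, n = 3 siRNAs; exact permutation p = 1.0), higher under 1 of 3 siRNAs. The order of the 8 mean differences ran from DGAT2 through AGPAT2, DGAT1, LPIN1, AGPAT1, AGPAT5 and GPAM to LPIN2. From AGPAT2 to LPIN2, each gene differed from the next in that order by less than the larger of their SDs over siRNAs.

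**Figure D3:**
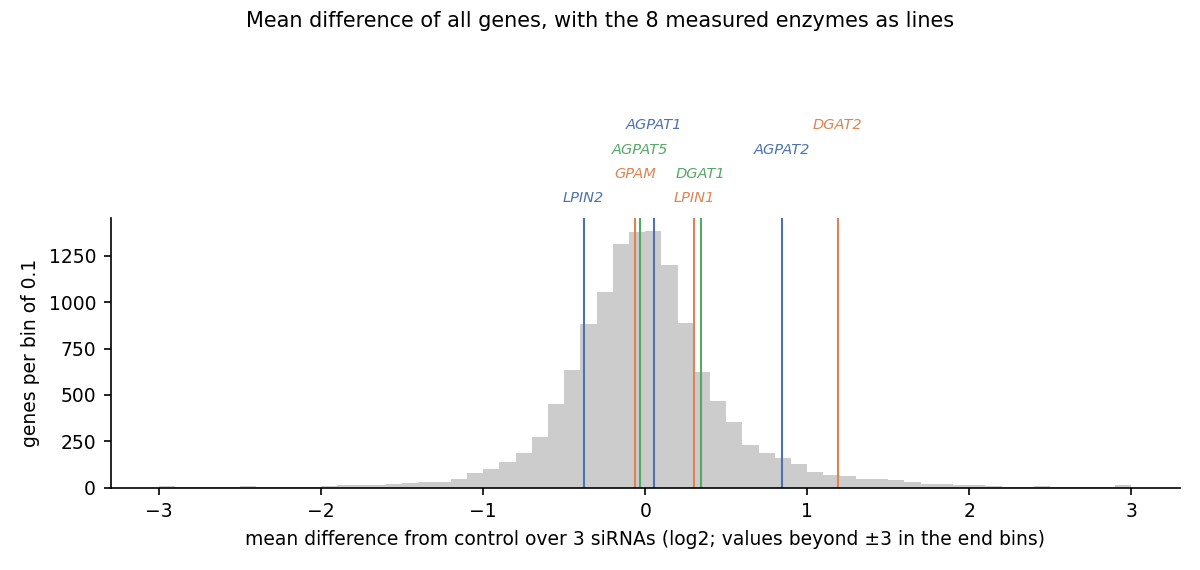
Number of genes per bin of 0.1 (vertical axis) by mean difference from the control over the 3 siRNAs on the log2 scale (horizontal axis, with values beyond the ends put in the end bins). Coloured lines mark the 8 measured enzymes; DGAT2 at 1.19 and AGPAT2 at 0.84 lie in the upper tail, and the other 6 lie between -0.38 and 0.34.

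Promoter windows are shown for AGPAT2 and LPIN1, which stood above both control arrays under every siRNA, and for GPAM, which did not. The windows run from 250 bases before to 50 after an annotated start and come from a table of RefSeq promoters on GRCh38.p14, in which 6 of the 10 enzymes were matched. Those of DGAT2, DGAT1, AGPAT5 and LPIN3 were not analysed here. They lie at chr9:136687408-136687707 on the minus strand for AGPAT2, chr2:11746382-11746681 on the plus strand for LPIN1, where it is the first of 3 listed starts, and chr10:112183716-112184015 on the minus strand for GPAM. Each is written 5′ to 3′ on the strand of the gene. Capitals mark matches, on either strand, to the CCAAT box, the E-box CACGTG, the GC box GGGCGG and the sterol element core TCACNCCAC.

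AGPAT2: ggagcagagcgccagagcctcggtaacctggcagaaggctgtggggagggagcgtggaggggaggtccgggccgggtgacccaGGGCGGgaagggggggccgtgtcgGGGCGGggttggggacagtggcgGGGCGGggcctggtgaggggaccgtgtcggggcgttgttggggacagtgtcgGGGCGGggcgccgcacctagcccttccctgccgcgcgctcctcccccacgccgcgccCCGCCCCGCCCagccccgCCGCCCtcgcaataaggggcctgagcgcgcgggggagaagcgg
LPIN1: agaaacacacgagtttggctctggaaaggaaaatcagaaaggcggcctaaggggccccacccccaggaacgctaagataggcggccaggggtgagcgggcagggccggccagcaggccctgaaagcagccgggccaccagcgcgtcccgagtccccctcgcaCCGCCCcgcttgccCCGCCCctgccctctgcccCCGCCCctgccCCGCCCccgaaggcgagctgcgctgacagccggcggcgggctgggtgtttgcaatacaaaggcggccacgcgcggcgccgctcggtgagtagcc
GPAM: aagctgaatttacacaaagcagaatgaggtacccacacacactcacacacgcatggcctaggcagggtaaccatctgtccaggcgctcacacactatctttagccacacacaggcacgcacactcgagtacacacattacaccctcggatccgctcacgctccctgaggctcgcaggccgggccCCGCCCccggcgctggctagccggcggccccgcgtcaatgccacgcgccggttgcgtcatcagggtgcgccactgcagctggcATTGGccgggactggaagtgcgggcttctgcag

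The AGPAT2 window held 7 GC boxes and the LPIN1 window shown 4, with no CCAAT box, E-box or sterol element core in either. The other LPIN1 windows held 0 and 1 GC boxes. The GPAM window held 1 GC box and 1 CCAAT box, the latter as ATTGG. Of the 35116 windows of this length in the table, 45.0% held a GC box, 34.6% a CCAAT box, 7.26% the E-box and 1.13% the sterol element core. Overlapping GC boxes were counted separately, as in AGPAT2, and some windows of the table overlap each other. LPIN2 had 2 listed windows, of which 1 held the E-box and 5 GC boxes. The matches are of letters only, and binding was not measured.

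Around the pathway, no list gave a gene that passed the limma test over all genes. The counts of genes higher or lower under all 3 siRNAs in each list stand against 17.9% and 18.2% of all genes. Enzymes and channels that supply glycerol 3-phosphate had 3 of 6 genes measured, 0 higher and 1 lower under all 3 siRNAs, and a median of -0.20. The lower gene was GPD1L, a relative of glycerol 3-phosphate dehydrogenase, at -0.20 ± 0.10 (SD, n = 3 siRNAs). Other acyltransferases and the monoacylglycerol route had 7 of 10 measured, 1 higher and 0 lower, and a median of 0.06. The higher gene was MOGAT3, a monoacylglycerol acyltransferase of the DGAT2 family, at 0.48 ± 0.31 (SD, n = 3 siRNAs), with control arrays -0.76 apart and a mean of 0.10 without control array 2. MOGAT2, of the same family and named after its values were seen, differed from the control by -0.49 under siRNA 1, 1.53 under siRNA 2 and 1.14 under siRNA 3.

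The phosphatases around lipins had 4 of 5 genes measured, 2 higher and 1 lower, and a median of 0.23. CTDNEP1, the catalytic subunit that dephosphorylates lipins, stood at -0.29 ± 0.16 (SD, n = 3 siRNAs), but at 0.04 without control array 1. PLPP1, a lipid phosphate phosphatase of the cell surface, stood at 0.83 ± 0.49 (SD, n = 3 siRNAs), with means of 1.37 and 0.30 from its probe sets. Genes that lead from phosphatidate and diacylglycerol to phospholipids had 19 of 20 measured, 2 higher and 2 lower, and a median of 0.10. Both counts are smaller shares of the 19 than those over all genes. PCYT2, the CTP-dependent enzyme of phosphatidylethanolamine synthesis, stood at 0.57 ± 0.20 (SD, n = 3 siRNAs), and PCYT1B, that of phosphatidylcholine synthesis, at 0.56 ± 0.31. In both, the control arrays lay farther apart than the mean difference, by -1.10 and -0.99, and without control array 2 the means were 0.02 and 0.07. The 2 lower genes, named after their values were seen, were CDS2 at -0.18 ± 0.22 (SD, n = 3 siRNAs) and ETNK1 at -0.44 ± 0.33. ETNK1 lay below both control arrays under all 3 siRNAs, but with 1 probe set per gene it was higher under all 3.

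Diacylglycerol kinases, which turn diacylglycerol back into phosphatidate, had 8 of 9 genes measured, 5 higher and 2 lower, and a median of 0.34. These values rested on control array 2: without it 2 genes were higher, DGKB and DGKI, 3 were lower, and the median was -0.14. Shares over all genes were not taken for that setting. At an unadjusted limma p under 0.05, reached by 1.69% of all genes, this list had 2 genes and the other lists around the pathway had none. DGKB, measured by 1 probe set, read -2.69 and -2.76 on control arrays 1 and 2 and 0.00, 1.35 and 3.12 under siRNAs 1, 2 and 3. The groups did not overlap, and the mean difference was 4.21 ± 1.56 (SD, n = 3 siRNAs). The adjusted p from limma was 0.9999. DGKI, also measured by 1 probe set, stood at 1.97 ± 0.56 (SD, n = 3 siRNAs), with control arrays -1.88 apart, and at 1.03 without control array 2. Transcriptional regulators of lipogenic genes had 14 of 16 measured, 2 higher and 0 lower, and a median of 0.03. That median was 0.17, -0.04 and -0.03 without siRNAs 1, 2 and 3, and 0.14 or 0.03 without control array 1 or 2. RXRA, a partner of liver nuclear receptors, stood at 0.47 ± 0.27 (SD, n = 3 siRNAs) and MLXIPL, the carbohydrate response factor ChREBP, at 0.27 ± 0.29, with 0.00 under siRNA 1. SREBF1, which encodes the factor SREBP1 and was named after its values were seen, stood at -0.01 ± 0.17.

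**Figure D4:**
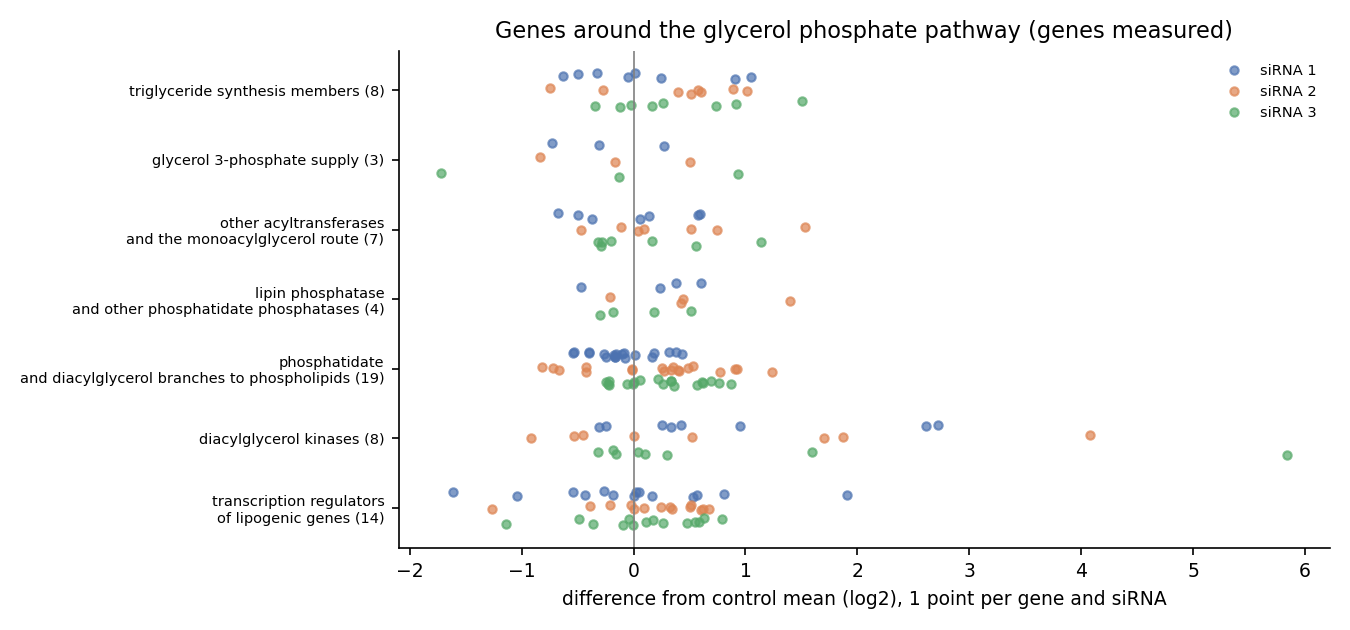
Difference from the control mean on the log2 scale (horizontal axis) for each measured gene of the enzyme set and of 6 lists around the pathway (vertical axis, with the number of genes measured), 1 point per gene and siRNA. Diacylglycerol kinases hold the values farthest from 0, from DGKB and DGKI, and the phospholipid list lies within about the range of the enzymes themselves.

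GPAM, AGPAT1 and DGAT1 were below the control mean under siRNA 1 and above it under siRNA 2. So was the median of the hepatocyte markers, though not each marker. Under siRNA 3, where that median was 0.61, DGAT1 stood at 0.92 but GPAM at -0.12 and AGPAT1 at -0.02. Of 8 markers 7 were measured, with medians of -0.41, 0.65 and 0.61 under siRNAs 1, 2 and 3. Their summed centred values ran from -2.17 to -0.01 over the control arrays and from -6.12 to 7.60 over the siRNA arrays. Named after their values were seen, ALB (albumin) stood at -2.02, 3.03 and 2.69, SERPINA1 (alpha-1-antitrypsin) at 0.06, 1.57 and 0.58, and AFP (alpha-fetoprotein) at -0.39, -0.33 and 0.22. The part of this in the values of GPAM, AGPAT1 and DGAT1 was not tested. Markers of other cell types were 11 genes of 20 measured, with mean differences between 0.45 and 1.04 for 3 adipocyte genes, between -1.17 and 1.25 for 3 fibroblast and stellate cell genes, -0.32 for 1 endothelial gene and between -0.56 and 1.61 for 4 macrophage and lymphocyte genes. The medians of the fibroblast and stellate cell genes ran the other way, at 1.30, 0.48 and -0.84 under siRNAs 1, 2 and 3, and their part was likewise not tested. The 3 genes of that list, named after their values were seen, did not share a pattern, and each median was the value of a different gene. COL1A1, a collagen gene, stood at 3.32, 1.27 and -0.84 under siRNAs 1, 2 and 3. PDGFRB stood at 1.30, -2.54 and -2.27, and DCN, highest under siRNA 3, at 1.10, 0.48 and 1.51. Of the COL1A1 probe sets, 217430_x_at stood at -0.59, -0.27 and -0.31. Without levels, these values do not show whether any of those transcripts was present.

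The genes whose values over the 5 arrays lay nearest to GPAM, by root mean square difference, were PARD6A at 0.04, KLRG1 at 0.06 and LINC02905 at 0.08. For DGAT2 they were ABCB6 at 0.11, CFAP100-DT at 0.12 and MYL5 at 0.14. Each of these 6 genes was measured by 1 probe set.

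**Figure D5:**
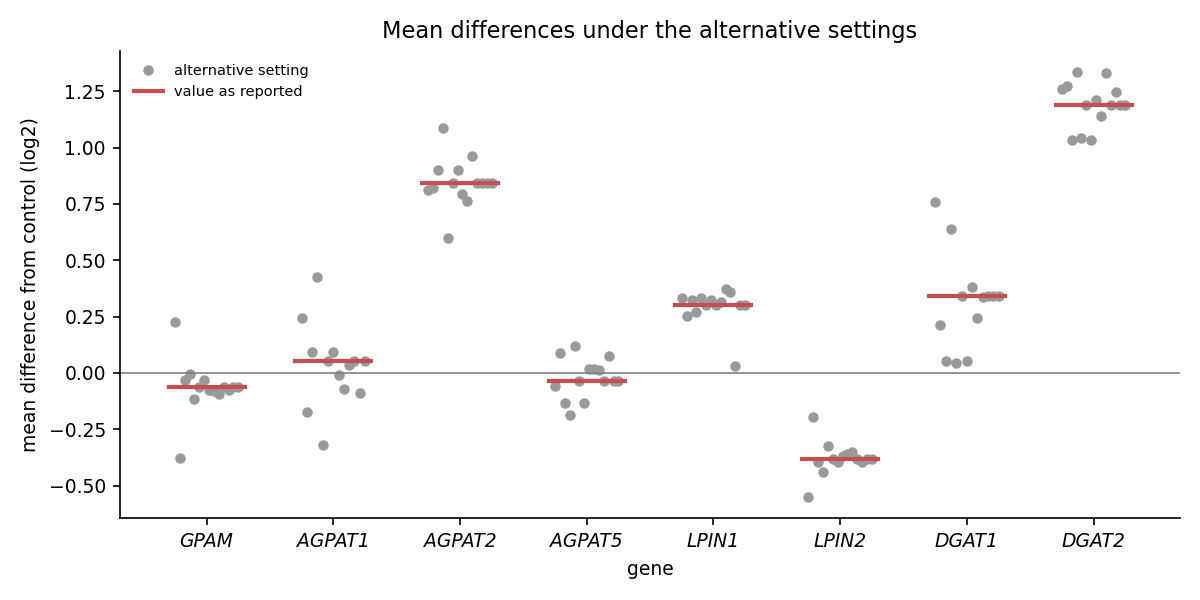
Mean difference from the control on the log2 scale (vertical axis) for each enzyme (horizontal axis) as reported (red line) and under each of up to 14 alternative settings (grey points). DGAT2 stays between 1.03 and 1.33 and AGPAT2 between 0.60 and 1.09, while points for GPAM, AGPAT1 and AGPAT5 fall on both sides of 0.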

How the data were processed

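RNA was labelled with a 3′ in vitro transcription kit and read on GeneChip arrays. The submitters' processing notes name MAS5. The deposited log2 values ran from -7.05 to 7.47, and all 30137 probe sets had a median of exactly 0 over the 5 arrays. The base of the logarithm, the probe set filter and any scaling between arrays are not given in the sources used here. They were read as base 2. No log step was needed, although the plan had allowed for linear values. Probe sets were named through the platform annotation (24151 with 1 symbol, 1175 with several, 4753 with none and 58 controls), and 0 symbols needed an update.

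Values were averaged over the probe sets of a gene and the control arrays to 1 sample. limma 3.58.1, under R 4.3.3, fitted all 12893 genes together (lmFit, then eBayes, two-sided) with 2 residual degrees of freedom from the siRNAs, so the control was assumed to vary like them. The Benjamini-Hochberg adjustment ran over all genes, with a threshold of 0.05. Python 3.11.15, with matplotlib 3.10.9 and pandas 2.3.3, made tables and plots.

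The enzymes, lists and alternatives were chosen with earlier results of these data known. Named are all measured enzymes, KDM1B, up to 2 genes per list around the pathway (same sign under all 3 siRNAs, ranked by the size of the smallest of the 3 differences), and the 3 genes nearest to GPAM and to DGAT2. The lists covered glycerol 3-phosphate supply, other acyltransferases, phosphatidate phosphatases, phospholipid branches, diacylglycerol kinases, lipogenic regulators and markers of hepatocytes and other cells. Alternatives left out single arrays, took the control arrays as 2 samples, used the array number or the poly-A readings as a block, or changed the normalization, the probe set rule, the gene filter or eBayes. A single probe set at its detection floor cannot be recognised without levels.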

Additional observations from a re-analysis of the deposited data

How the results depend on the processing

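Under each of 14 alternatives limma called 0 genes and 0 enzymes, with a lowest adjusted p = 0.108 over all genes. That value came against the control array of like poly-A readings. There siRNAs 1 and 2 both subtract control array 1, so the 3 differences are not independent and p-values can be too small. They can also be too small where the control arrays enter as 2 samples, with or without a block, since the second is a technical replicate. DGAT2, AGPAT2, LPIN1, LPIN2 and DGAT1 kept their direction under every alternative that could be run on them, as did KDM1B, while with 1 probe set per gene LPIN1 was 0.03 and KDM1B -0.90. Some alternatives could not alter a direction. The control arrays as 2 samples, the gene filter and the changed eBayes leave every mean difference as it was. The median of probe sets does so for genes with 1 or 2 probe sets. The median over the enzymes was 0.052 with 1 probe set per gene and 0.073 with the replicate block, the same value as without siRNA 3. The same alternatives were applied to the lists after their values were seen. Genes at an unadjusted limma p under 0.05 were 218 of 12893 as reported. They numbered from 86 of the 8861 genes left by the filter on control arrays to 1161 of 12893 against the control array of like poly-A readings. Without siRNAs 1, 2 and 3 in turn, an unadjusted limma p under 0.05 was reached by 2.96%, 2.14% and 2.52% of all genes. The count of enzymes at that mark, 1 as reported, was 0 in each of these. It was 2, with AGPAT2 added, with the control arrays as 2 samples, with the poly-A control block, against the control array of like poly-A readings and with quantile normalization. More of all genes reached that limma mark there too: 3.75%, 3.86%, 9.0% and 2.79% in the same order, beside 1.69% as reported. Enzymes lower under all siRNAs, 1 as reported, ran from 0 to 3 on leaving out single arrays and were 0 against the control array of like poly-A readings. No shares over all genes were taken beside the counts of lower enzymes, and the 3 was reached with only 2 siRNAs.

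On leaving out single arrays GPAM ran from -0.38 to 0.22, AGPAT1 from -0.32 to 0.42, AGPAT5 from -0.19 to 0.12 and CTDNEP1 from -0.61 to 0.037. AGPAT1 turned to -0.010 with the poly-A control block, -0.070 against the control array of like poly-A readings and -0.091 with 1 probe set per gene. AGPAT5 turned to 0.016, 0.017 and 0.074 under the same settings and to 0.014 with quantile normalization. The cause was not tested. With the array number as a replicate block limma called 0 genes and gave DGAT2 a mean difference of 1.03. Mean differences there are those without siRNA 3, which has no control array of its number and so drops out of them. The numbers do not pair the samples, since each siRNA number names a siRNA and the control arrays share 1 sample. Deviations of same-numbered arrays from their group means correlated at 0.10 and -0.05 over genes. The highest correlation was 0.15, between control array 2 and siRNA 3. Deviations of the 2 control arrays are exact opposites, so these correlations are not independent and do not test the pairing. The filter on control arrays within 0.5 left out AGPAT1 and DGAT1.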
